A study of Homo sapiens with 16 samples.

Results

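The genes described here were low in K562 cells through the first 6 h of treatment with phorbol 12-myristate 13-acetate (PMA) and high at 72 h. They were chosen by their own levels: protein-coding genes with a 72 h mean of at least 20 CPM (counts scaled to library size: a gene's reads relative to all reads assigned to genes) that was at least 10 times each of the means from 0 to 6 h (5 time points), with the 72 h libraries within 3-fold of each other. The rule was met by 111 of the 19801 protein-coding genes in the tables, and of the 7718 with at least 20 CPM at 72 h. K562 is an established human leukaemia cell line, wild type here, grown in RPMI with serum. PMA at 25 nM was given to induce megakaryocyte differentiation, and ribosomal RNA was removed from total RNA before sequencing, at 0 h, early in the course (0.5, 1.5, 3 and 6 h of PMA) and on later days (24, 48 and 72 h), with 2 libraries at each of the 8 time points. The medium was changed after 24 h and after 48 h, and the 0 h libraries served as the only untreated cells, so no time point had an untreated control of its own age.

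Library totals were 27285773 to 54056289 estimated reads, and 3 reads, the fewest taken as a level, stood for 0.0574 to 0.113 CPM. The labels say nothing of separate cultures, so errors and p-values measure the spread between these libraries, which may be technical. The cells had the K562 erythroid genes: at 0 h HBG2, a fetal globin, stood at a mean of 919 CPM, GATA1 at 147 CPM and TAL1 at 205 CPM. In bulk RNA, fewer cells that express a gene and less of its RNA per cell cannot be told apart.

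PMA stands in for diacylglycerol and activates protein kinase C, which signals through the ERK cascade. Immediate-early transcription factors answer within the first hours. In K562 cells treated with PMA, proliferation is known to slow, cells attach and spread, and surface proteins of the megakaryocyte lineage appear. Genes that come on late in such a programme often code for secreted, matrix and membrane proteins.

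The members were not genes that came on only after 24 h. In 109 of the 111 members both 24 h libraries lay above all 10 libraries from 0 to 6 h, the exceptions being ITGA6 and WWC1. Over all genes tested that share was 17.9%, and nothing is read from the difference, since the rule required the members to be low up to 6 h. At 24 h the mean was at least 2 times the highest early mean in 107 members, and at least 10 times in 50. Only PRSS2, ITGA6, JAG1 and WWC1 were under 2-fold at 24 h. By 48 h, 88 members were at least 10 times their highest early mean. Together the members took 0.0333 and 0.0342% of the reads in the 0 h libraries, 0.0712 and 0.0707% at 6 h, 0.945 and 0.929% at 24 h, 1.88% in both 48 h libraries, and 2.40 and 2.41% at 72 h. The highest early mean fell at 6 h in 73 members. Both 6 h libraries lay above both 0 h libraries in 69 members, beside 24.5% of all genes tested, and the 6 h mean was at least 2 times the 0 h mean in 53, values that the rule itself used. The summed share was thus higher at each step from 6 to 72 h. THBS1 alone made 26.6% of the members' sum at 24 h and 19.1% at 72 h.

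THBS1 (chr15:39581079-39599466 in GRCh38), the matrix protein thrombospondin 1, had the highest 72 h level in CPM. It stood at 4.02 and 3.91 CPM in the 0 h libraries, 129 and 129.7 at 6 h, 2569 and 2413 at 24 h, 4294 and 4093 at 48 h, then 4793 and 4420 at 72 h. The gene was thus already 19.2 times its 6 h mean at 24 h. STC1 (chr8:23841915-23854807), the secreted glycoprotein hormone stanniocalcin 1, stood at 0.664 and 0.355 CPM at 0 h, 20.4 and 21.3 at 6 h, 345 and 369.8 at 24 h, 2328 and 2512 at 48 h, then 3494 and 3620 at 72 h. Its libraries did not overlap between any neighbouring pair of time points from 6 h on. IGF1R (chr15:98648539-98964530), the receptor of insulin-like growth factor 1, stood at 27.0 and 28.2 CPM at 0 h, 78.6 and 74.5 at 6 h, 1921 and 1920 at 24 h, 1911 and 1946 at 48 h, then 2023 and 2111 at 72 h. It had reached 92.9% of its 72 h level at 24 h. Compared per length, the 72 h order was STC1 at 1613 TPM (abundance per transcript length), THBS1 at 1230, PRSS2 at 1142, IGF1R at 888 and TFPI2 at 875.

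**Figure D1:**
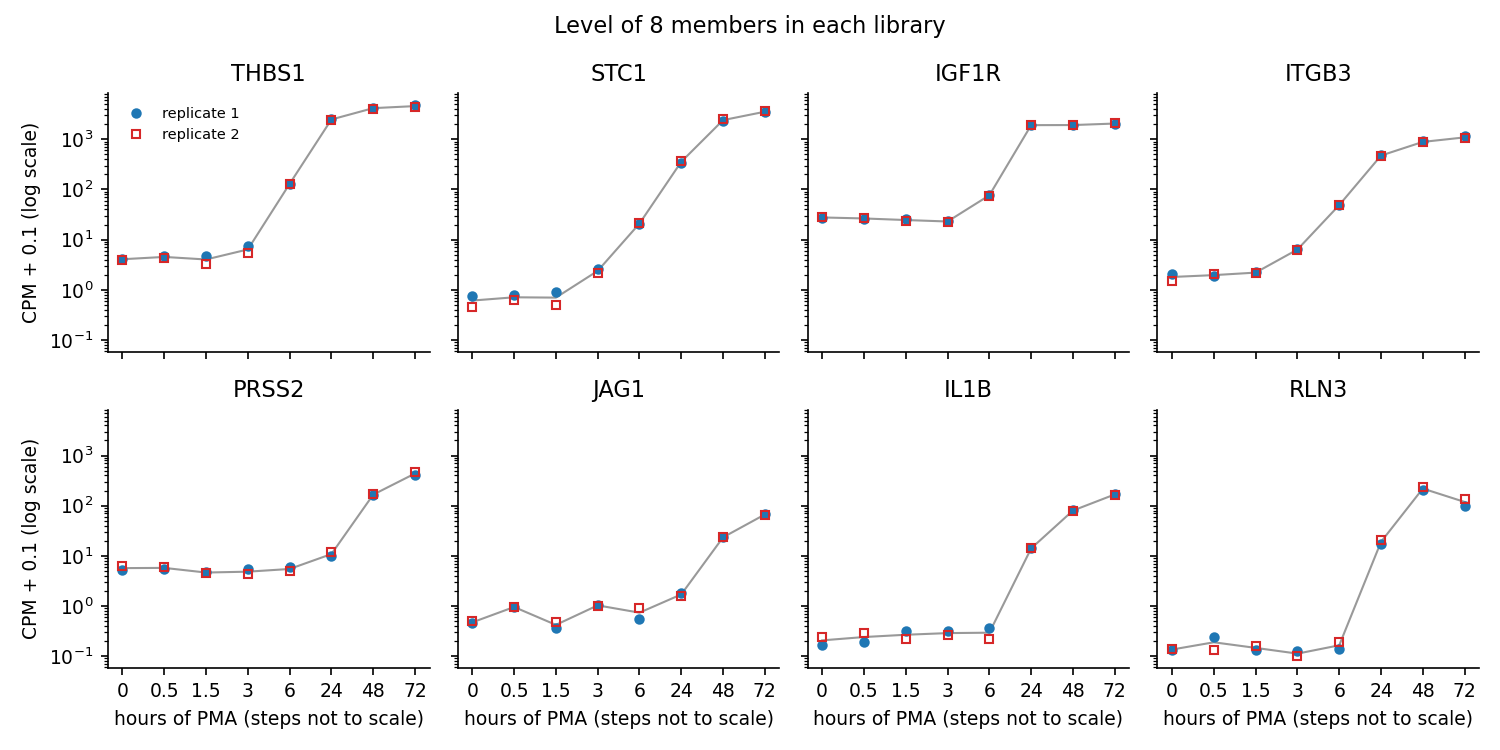
Level of 8 members in CPM + 0.1 (log axis) in each library, by hours of PMA in even steps; points are libraries and the grey line joins the means. IGF1R is near its 72 h level by 24 h, PRSS2 and JAG1 are near their early levels at 24 h, and RLN3 is highest at 48 h.

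The members differed in timing. The median 24 h level was 26.5% of the 72 h level (quartiles 15.1 and 43.4%, range 2.26 to 105%), and the median 48 h level was 71.6%. At 24 h, 20 members had at least 50% of their 72 h level, 41 had 25 to 50%, 33 had 10 to 25%, and 17 had under 10%. The highest shares were those of KCNK3 (105%), a potassium channel of the leak type, PI16 (99.7%), a secreted peptidase inhibitor, and ANGPTL4 (96.7%), a secreted inhibitor of lipoprotein lipase. The lowest were those of ITGA6 (2.26%), JAG1 (2.40%) and PRSS2 (2.45%). The 72 h mean was at least 2 times the 48 h mean in 19 members, and 103 had a higher mean at 72 h than at 48 h. In 6 members, COL1A1, RLN3, KCNK3, PODXL, VASH1 and PI16, both 48 h libraries lay above both 72 h libraries, as in 18.7% of all genes tested. These values use the 72 h level that chose the genes and are given as a description.

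**Figure D2:**
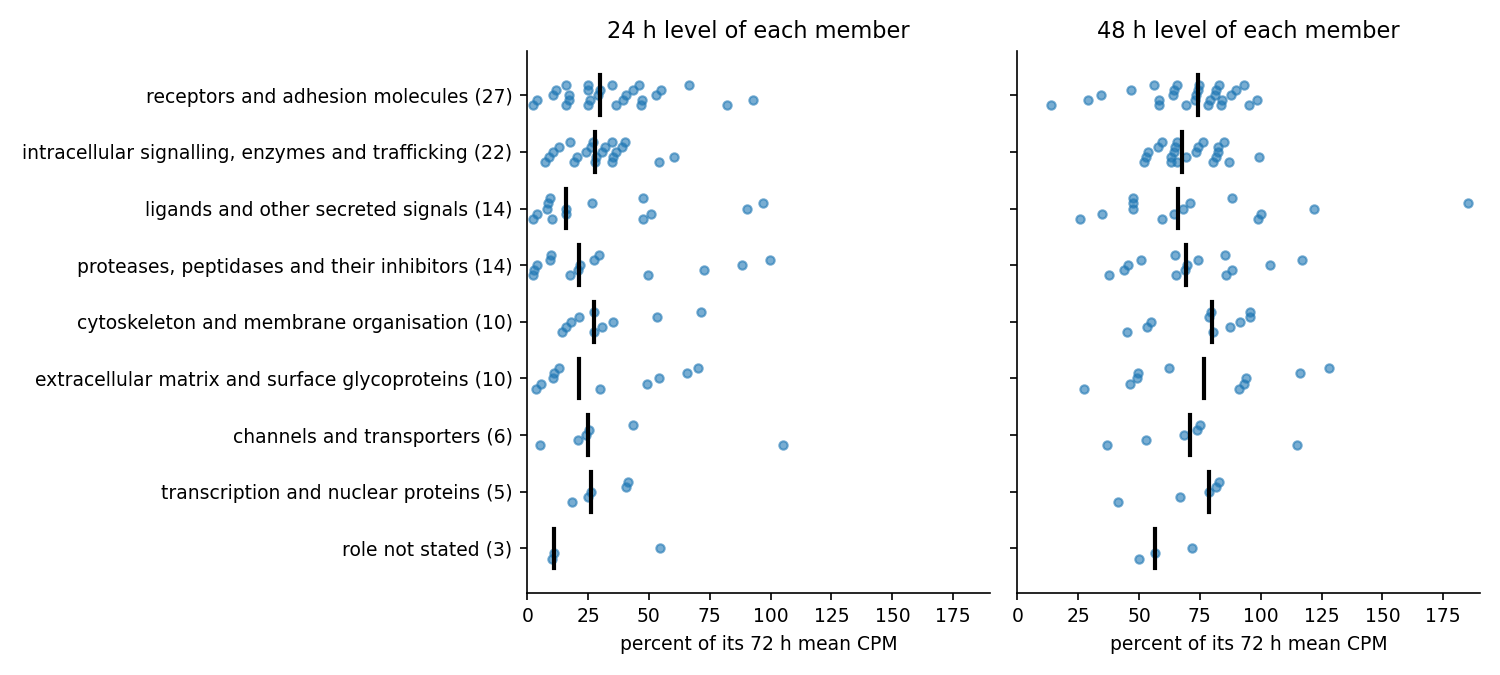
Mean CPM of each member at 24 h (left) and 48 h (right) as a percent of its 72 h mean, by role; each point is a member, the black bar is the median of the role, and the number of members is in parentheses. The spread within each role is wider than the differences between role medians, which at 24 h lie between 11.2 and 29.7%.

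The threshold separated genes with close values. Just inside the level limit were CD93 at 20 CPM, KLK13 at 20.5 CPM and NT5DC4 at 20.8 CPM at 72 h, and just outside were BIRC7 (18.5 CPM), PDK2 (18.5 CPM) and TMEM233 (18.1 CPM). Just inside the fold limit were CCND1 at 10.0 times its highest early mean, VDR at 10.2 and SPOCD1 at 10.4, and just outside were BMF (9.87), TNS3 (9.73) and BTBD9 (9.72). No gene was left out by the limit on 72 h replicates, and the largest ratio between the 72 h libraries of a member was 1.68.

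The 48 and 24 h libraries played no part in the choice, so the step between them was tested, with edgeR's quasi-likelihood test over 17559 genes at a Benjamini-Hochberg adjusted p under 0.05. All 111 members passed the low-count filter. Of them 99 (89.2%) were called higher at 48 h, against 8.88% of all genes tested, and 0 were called lower, against 6.12% (0 members were lower at an unadjusted p under 0.05, and 0 with DESeq2). Both 48 h libraries lay above both 24 h libraries in 108 members (97.3%), where 38.7% of all genes tested did so. The median log2 fold change of the members was 1.28, beside 0.00 over all genes (0.09 with scaling to library totals alone, where the members had 1.36), and it was 1.37 in replicate 1 and 1.35 in replicate 2 from unscaled CPM. Tested against a 2-fold change instead of none, 43 members (38.7%) were called higher, beside 1.11% of all genes. A gene chosen for a low level up to 6 h and a high level at 72 h has to rise somewhere in between, and the test shows only how much of that rise lay between 24 and 48 h. The medium change after 24 h falls in this step and cannot be told apart from the added time. Of all genes called, 59.2% were higher, and 72.9% with that scaling. Leaving out any 1 of the 24 or 48 h libraries left 83 to 90 members called higher and 0 lower, while the count over all genes fell to between 837 and 942 higher.

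The 12 members that were not called were IGF1R, TFPI2, GZMB, TIMP3, TM4SF1, KCNK3, TNS2, VASH1, ANGPTL4, PI16, IL33 and ULBP2. At 24 h they already had 49.6 to 105% of their 72 h level, and the 99 called had 2.26 to 70.0%. The largest rises were those of A2M, CGA, PRSS2, JAG1 and RLN3, described with their groups. The share at 24 h and the tested step both hold the 24 h value, so a low share goes with a large step by construction, and the 2 are not independent.

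**Figure D3:**
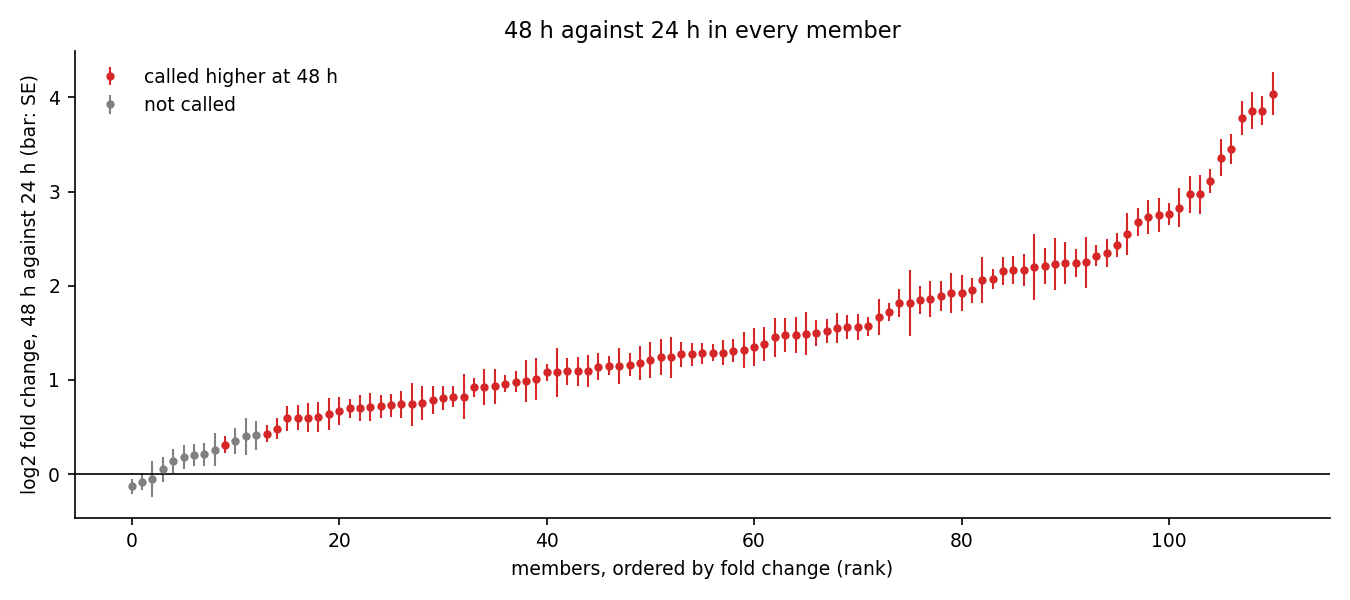
Fitted log2 fold change at 48 h against 24 h (bar, standard error) for each of the 111 members, ordered by size; red members were called higher and grey ones were not. The values run from -0.13 to 4.04, and 3 of them are below 0.

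Among the ligands and other secreted signals, 11 of 14 were called higher at 48 h, with log2 fold changes from -0.05 to 3.86. The counts by role here and below are to be read beside 89.2% of all members and 8.88% of all genes tested. Differences between roles were not tested. Interleukin-1 was present in both forms. IL1B (chr2:112829751-112836903), the secreted inflammatory cytokine interleukin-1 beta, stood at 14.0 and 13.9 CPM at 24 h, 80.4 and 79.2 at 48 h, then 172 and 163 at 72 h, from 0.0699 and 0.142 at 0 h. Its step from 24 to 48 h was a log2 fold change of 2.43 (standard error 0.13, edgeR adjusted p 8.50e-08). IL1A, which codes for interleukin-1 alpha, stood at 3.69 and 3.94 CPM at 24 h and 42.8 and 37.9 at 72 h. IL24, a cytokine of the interleukin-10 family, was late, with 9.94 and 9.89 CPM at 24 h, 31.8 and 30.4 at 48 h, then 126 and 114 at 72 h. TNFSF15, a ligand of the tumour necrosis factor family, went from 72.8 and 72.4 CPM at 24 h to 165 and 160.5 at 48 h (log2 fold change 1.08, standard error 0.09, edgeR adjusted p 6.72e-06). IL33, the nuclear alarmin cytokine, stood at 16.1 and 14.4 CPM at 24 h and 21.9 and 20.6 at 48 h and was not called (edgeR adjusted p 0.202).

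JAG1 (chr20:10637684-10673999), a ligand of Notch receptors, was among the latest. It stood at 0.350 and 0.391 CPM at 0 h, 1.69 and 1.51 at 24 h, 23.4 and 23.2 at 48 h, then 69.3 and 64.1 at 72 h, and its step from 24 to 48 h was a log2 fold change of 3.78 (standard error 0.18, edgeR adjusted p 2.74e-08). CGA, the alpha subunit shared by the glycoprotein hormones, stood at 1.62 and 1.53 CPM at 24 h, 23.6 and 25.0 at 48 h, then 41.8 and 33.9 at 72 h (48 h against 24 h, log2 fold change 3.86, standard error 0.20, edgeR adjusted p 8.50e-08). Both were thus under 2 CPM at 24 h and above 20 CPM a day later. RLN3 (chr19:14028148-14031042), which codes for the peptide hormone relaxin-3, went from 17.5 and 20.3 CPM at 24 h to 206 and 233 at 48 h (log2 fold change 3.45, standard error 0.16, edgeR adjusted p 2.97e-08) and stood at 100.2 and 137 at 72 h. Its 48 h libraries were the highest of the course. STC1 rose by a log2 fold change of 2.68 in the same step (standard error 0.15, edgeR adjusted p 1.70e-07). PDGFB, the B chain of platelet-derived growth factor, went from 83.7 and 85.5 to 159.7 and 155 CPM (log2 fold change 0.81, standard error 0.13, edgeR adjusted p 0.000883). ANGPTL4 stayed between 31.7 and 35.1 CPM in all 24 and 48 h libraries, with a log2 fold change of -0.05 (standard error 0.19, edgeR adjusted p 0.896). Its sign turned to 0.03 with scaling to library totals alone and to 0.10 without 24 h replicate 2.

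All 10 members among the extracellular matrix and surface glycoproteins were called higher at 48 h (beside 89.2% of all members), with log2 fold changes from 0.43 to 2.97. THBS1 rose by 0.67 (standard error 0.15, edgeR adjusted p 0.00937), a call that was lost whichever of the 24 or 48 h libraries was left out (edgeR adjusted p 0.0549 to 0.0665). COL1A1, a chain of fibrillar type I collagen, went from 105 and 101 CPM at 24 h to 248 and 237 at 48 h (log2 fold change 1.15, standard error 0.10, edgeR adjusted p 6.25e-06) and stood at 191 and 226 at 72 h. COL22A1 was later, from 1.94 and 1.68 CPM at 24 h to 13.8 and 13.3 at 48 h and 50.2 and 49.0 at 72 h. Of its 72 h reads 88.1% lay in a transcript annotated as non-coding. LOXL2, a lysyl oxidase that crosslinks collagen, stood at 10.7 and 9.35 CPM at 24 h, 44.8 and 44.2 at 48 h, then 87.4 and 93.8 at 72 h. CEMIP, which takes part in the breakdown of hyaluronan, and the cell-surface mucin MUC16 ended at 51.2 and 51.5 CPM and at 25.8 and 33.0 CPM. CSPG4, a surface proteoglycan, was earlier, at 91.1 and 88.7 CPM at 24 h and 124 and 149.7 at 72 h.

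In the group of proteases, peptidases and their inhibitors, 10 of 14 were called higher at 48 h. PRSS2 (chr7:142760398-142774564), the digestive protease precursor trypsinogen 2, stood at 5.06 and 6.11 CPM at 0 h, 9.89 and 11.6 at 24 h, 161 and 171 at 48 h, then 407 and 469.6 at 72 h. Its log2 fold change from 24 to 48 h was 3.86 (standard error 0.15, edgeR adjusted p 7.27e-09). A2M (chr12:9067664-9116229), the secreted broad-range protease inhibitor alpha-2-macroglobulin, had the largest fitted rise of the set, 4.04 (standard error 0.23, edgeR adjusted p 1.64e-07). It stood at 1.97 and 2.03 CPM at 24 h, 35.8 and 34.4 at 48 h, then 85.7 and 68.0 at 72 h. ACE, the angiotensin-converting enzyme, stood at 32.5 and 29.3 CPM at 24 h, 121 and 132 at 48 h, then 131 and 164 at 72 h. Aspartyl proteases among the members included CTSE (cathepsin E, 4.0 and 3.48 CPM at 24 h, 91.4 and 93.5 at 72 h) and BACE2 (15.2 and 13.9 CPM at 24 h, 152 and 156 at 72 h). Coding transcripts held 99.8% of the BACE2 reads up to 6 h and 58.2% at 72 h.

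PCSK1, a proprotein convertase of the secretory pathway, stood at 23.1 and 20.5 CPM at 24 h and 83.7 and 82.3 at 48 h (log2 fold change 1.85, standard error 0.15, edgeR adjusted p 1.09e-05). Other inhibitors than A2M were nearer to their 72 h level at 24 h. TFPI2, a Kunitz-type inhibitor of serine proteases, stood at 519 and 496 CPM at 24 h and 625 and 609.7 at 48 h and was not called over all libraries (log2 fold change 0.20, standard error 0.12, edgeR adjusted p 0.323), though it was in a fit of the 24 and 48 h libraries alone (edgeR adjusted p 0.0399). TIMP3, a matrix-bound inhibitor of metalloproteases, stood at 92.9 and 97.4 CPM at 24 h and 93.5 and 91.1 at 48 h (log2 fold change -0.13, standard error 0.08, edgeR adjusted p 0.338). GZMB, granzyme B of cytotoxic granules, stood at 164 and 182 CPM at 24 h and 236 and 251 at 48 h (edgeR adjusted p 0.0894). SCG5, the neuroendocrine chaperone 7B2, was called higher (log2 fold change 1.82, standard error 0.35, edgeR adjusted p 0.00321), but not with DESeq2 (adjusted p 0.129), and its reads lay in a non-coding transcript, as given with the transcripts.

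Receptors and adhesion molecules formed the largest group, and 24 of its 27 were called higher at 48 h. ITGB3 (chr17:47253846-47311816), integrin beta 3 of the platelet fibrinogen receptor, stood at 1.99 and 1.41 CPM at 0 h, 48.7 and 48.8 at 6 h, 481 and 469 at 24 h, 911 and 868 at 48 h, then 1146 and 1043 at 72 h. Its log2 fold change from 24 to 48 h was 0.82 (standard error 0.11, edgeR adjusted p 0.000176). The other subunit of that receptor, ITGA2B, was not a member, with means of 64.7 CPM at 0 h, 12.4 at 24 h and 62.3 at 72 h. ITGA6 (chr2:172427354-172506282), a laminin-binding integrin subunit, had the lowest 24 h share: it stood at 1.91 and 1.70 CPM at 24 h, 11.1 and 11.2 at 48 h, then 82.1 and 77.3 at 72 h. Its log2 fold change from 24 to 48 h was 2.55 (standard error 0.22, edgeR adjusted p 6.93e-06). ITGA3, another laminin-binding subunit, stood at 45.8 and 48.0 CPM at 24 h and 72.2 and 78.6 at 48 h (log2 fold change 0.60, standard error 0.13, edgeR adjusted p 0.00827), a call lost without 24 h replicate 1 (edgeR adjusted p 0.0806) and without 48 h replicate 2 (edgeR adjusted p 0.0954).

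IGF1R did not pass the test between 24 and 48 h (log2 fold change -0.08, standard error 0.09, edgeR adjusted p 0.641, with the sign turned to 0.01 by scaling to library totals alone). TIE1, an endothelial receptor tyrosine kinase, stood at 168 and 167 CPM at 24 h and 249.6 and 245 at 48 h (log2 fold change 0.48, standard error 0.11, edgeR adjusted p 0.0106). That call was lost without 24 h replicate 1 (edgeR adjusted p 0.0865), without 48 h replicate 1 (0.0676) and without 48 h replicate 2 (0.0754). Cytokine receptors were represented by IL13RA2, a decoy receptor for interleukin-13, at 19.8 and 20.5 CPM at 24 h and 213 and 170.3 at 72 h, and by IL2RB, a signalling chain of the interleukin-2 receptor, at 6.91 and 6.85 CPM at 24 h and 25.3 and 30.2 at 72 h. GPR4, a proton-sensing receptor, went from 24.2 and 28.5 to 117 and 134 CPM between 24 and 48 h (log2 fold change 2.17, standard error 0.17, edgeR adjusted p 3.29e-06). KIT, the stem cell factor receptor, was at 0.649 CPM on average at 0 h and at 36.3 and 32.4 CPM at 72 h. DCSTAMP, needed for cell fusion of osteoclasts, stood at 59.1 and 58.0 CPM at 24 h and 150.4 and 147 at 72 h. LYVE1, a hyaluronan receptor, stood at 8.87 and 8.44 CPM at 24 h and 78.0 and 66.9 at 72 h. CD93, a C-type lectin family receptor, was called (log2 fold change 0.82, standard error 0.24, edgeR adjusted p 0.0332) but lost the call without any 1 of the 24 and 48 h libraries (edgeR adjusted p 0.0917 to 0.204).

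Channels and transporters numbered 6, and 5 of them were called higher at 48 h. SLC7A8, a transporter of neutral amino acids, was 1 of 22 members with their highest early mean at 0 h. It averaged 25.2 CPM at 0 h and 6.05 CPM at 6 h, and then stood at 68.1 and 71.3 CPM at 24 h, 204 and 219 at 48 h, then 264 and 309.6 at 72 h. CACNA1E, a voltage-gated calcium channel, stood at 4.28 and 4.06 CPM at 24 h, 31.3 and 27.4 at 48 h, then 75.6 and 82.9 at 72 h (48 h against 24 h, log2 fold change 2.73, standard error 0.18, edgeR adjusted p 1.21e-06). KCNK3 stood between 101 and 113 CPM in the 24 and 48 h libraries (log2 fold change 0.05, standard error 0.13, edgeR adjusted p 0.858), with the sign turned to -0.01 without 24 h replicate 1. SLC30A3, a zinc transporter, ended at 33.6 and 50.4 CPM.

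All 22 members in intracellular signalling, enzymes and trafficking were called higher at 48 h (beside 89.2% of all members), with log2 fold changes from 0.59 to 3.11. DAB2, an endocytic adaptor, had means of 40.1 CPM at 0 h and 35.5 CPM at 6 h, and stood at 133 and 141 CPM at 24 h, 348 and 362 at 48 h, then 560.3 and 566 at 72 h. CCND1, cyclin D1, which drives entry into the cell cycle, stood at 155 and 164 CPM at 24 h, 316 and 341 at 48 h, then 407 and 412 at 72 h. NOS1, the neuronal nitric oxide synthase, was the largest riser of the group, from 11.3 and 11 CPM at 24 h to 102 and 103 at 48 h (log2 fold change 3.11, standard error 0.13, edgeR adjusted p 1.18e-08). PTGS1, the cyclooxygenase that starts thromboxane synthesis in platelets, went from 63.6 and 62.4 to 165 and 159 CPM (log2 fold change 1.28, standard error 0.11, edgeR adjusted p 5.63e-06). NT5E, the ectonucleotidase that makes adenosine, stood at 72.9 and 69.4 CPM at 24 h and 218 and 192 at 72 h. PRKCE, protein kinase C epsilon, itself a target of PMA, stood at 8.59 and 7.77 CPM at 24 h and 29.5 and 32.4 at 72 h. WWC1, a scaffold of the Hippo pathway, stood at 2.33 and 2.39 CPM at 0 h, 2.21 and 2.40 at 24 h, then 16.7 and 16.5 at 48 h.

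Of the 10 members in cytoskeleton and membrane organisation, 9 were called higher at 48 h. STOM, the membrane protein stomatin, had a mean of 46.2 CPM at 0 h and stood at 219 CPM in both 24 h libraries, 763 in both 48 h libraries, then 860 and 738 at 72 h. PPFIBP1, a liprin of cell adhesion sites, stood at 236 and 214 CPM at 24 h and 771 and 695 at 72 h. MYLK, the myosin light chain kinase, stood at 44.0 and 42.0 CPM at 24 h, 160 and 161 at 48 h, then 305 and 296 at 72 h (48 h against 24 h, log2 fold change 1.82, standard error 0.15, edgeR adjusted p 5.72e-06). TNS1 and TNS2, tensins that tie integrins to actin, differed in timing: TNS1 was called (log2 fold change 1.08, edgeR adjusted p 0.0124) and TNS2 was not (0.21, edgeR adjusted p 0.283), and the difference between them was not tested.

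All 5 transcription and nuclear proteins were called higher at 48 h (beside 89.2% of all members). ARNT2, a basic helix-loop-helix partner factor, stood at 70.6 and 68.0 CPM at 24 h, 221 and 214 at 48 h, then 276 and 277 at 72 h (48 h against 24 h, log2 fold change 1.57, standard error 0.10, edgeR adjusted p 4.50e-07). VDR, the vitamin D receptor, had means of 9.36 CPM at 0 h and 4.03 CPM at 6 h and stood at 76.5 and 79.6 CPM at 48 h (log2 fold change 0.92, standard error 0.10, edgeR adjusted p 6.24e-05). TBX3, a T-box repressor, stood at 75.5 and 84.4 CPM at 72 h. IFI16, an interferon-inducible DNA sensor, stood at 7.34 and 7.88 CPM at 24 h and 43.0 and 39.6 at 72 h.

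The functional lists were drawn up for this tissue and treatment, with earlier results of these data known. Their shares are set beside the 0.632% of all genes tested that are members. That base includes genes that the rule could not pick. Of the 7718 protein-coding genes with at least 20 CPM at 72 h, 111 were members. Of 64 matrix and matricellular genes tested, 3 (4.69%) were members, and 14 of the other 61 were called higher and 3 lower at 48 h. Extracellular proteases and inhibitors gave 5 members of 68 (7.35%), with 16 of the other 63 higher and 7 lower. Among chemokines and cytokines, 5 of 53 (9.43%) were members, and 6 of the other 48 were higher and 10 lower. Growth factors gave 4 of 55 (10 of the other 51 higher, 3 lower) and adhesion receptors 4 of 57 (16 of the other 53 higher, 2 lower). Transcription factors gave 2 of 134 (1.49%), with 24 of the other 132 higher and 10 lower. The guanine nucleotide exchange and small GTPase regulators held no member, and 14 of 67 were higher and 1 lower. Shares nearer to the base were those of solute carriers (1% of 299) and ion channels (1.18% of 170). G protein-coupled receptors (1.19% of 168) and immunoglobulin and lectin receptors (0.833% of 120) were also near it. The calls are set beside 8.88% higher and 6.12% lower over all genes.

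Markers of cell types were followed in the same libraries. The 25 megakaryocyte and platelet genes, of which THBS1 and ITGB3 are members, summed to 349 and 449.8 CPM at 0 h and 6945 and 7292 at 72 h, with THBS1 alone making 64.7% of the 72 h sum. GP1BA, GP9, PF4, SELP, F13A1, CLEC1B and TREML1, among the defining genes of that lineage, were under 0.1 CPM at 72 h. Others were higher at 72 h than at 0 h without being members, among them ITGA2 (means of 1.34 and 151 CPM), LTBP1 (40.5 and 685 CPM), CD9 (0.388 and 40.5 CPM), TUBB1 (2.72 and 15.5 CPM), MMRN1 (0 and 5.51 CPM) and FLI1 (0.103 and 4.51 CPM). Of the 15 non-members tested, 7 were called higher at 48 h than at 24 h and 0 lower, beside 8.88% and 6.12% of all genes tested. The same step gave 9 higher of 18 erythroid genes and 5 of 9 endothelial non-members, with 0 lower in both. The monocyte list gave 3 of 19, the fibroblast list 2 of 10 and the lymphocyte list 2 of 7, with 0 lower. Of 11 neuronal and neuroendocrine non-members 4 were higher and 1 lower, and of 9 epithelial genes 1 was higher and 2 lower. The 18 erythroid genes held no member and summed to 2660 to 3039 CPM at 0 h and 1705 to 2020 at 72 h. The endothelial list summed to between 29 and 31.7 CPM at 0 h and between 386 and 429 at 72 h, 77.5% of it TIE1, and 6 of its 12 genes were under 1 CPM. The fibroblast and smooth muscle list went from between 35.3 and 41.5 CPM at 0 h to between 245 and 284 at 72 h, 78.9% of it COL1A1, and LUM, FAP and POSTN were under 0.1 CPM. Monocyte and macrophage genes (24, no member) summed to 438 to 466 CPM at 0 h and 633 to 732 at 72 h, and T and B lymphocyte genes (12, no member) to 23.5 to 28.7 and 29.4 to 33.9 CPM. The epithelial list, with no member, summed to 637 to 756 CPM at 0 h and 3037 to 3395 at 72 h, 60.7% of it KRT8. Neuronal and neuroendocrine genes, with PCSK1 and SCG5 as members, summed to 76.6 to 81.1 CPM at 0 h, were between 1858 and 2193 at 24 h, then between 747 and 1006 at 72 h, and VGF alone made 87.3% of the sum at 24 h and 48.9% at 72 h. The part of such cell types or states in the members' levels was not tested.

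The rule used the sum of a gene's transcripts and not their shares, and in a number of members the transcript changed with the level. ITGA3-202, the coding transcript that led at 72 h, held 0% of ITGA3 reads in both 0 h libraries, 10.8 and 11.3% at 6 h, 73.2 and 76.6% at 24 h, then 82.8 and 79.9% at 72 h. At 0 h the reads lay in retained-intron transcripts, 59.6 and 68.3% in ITGA3-208 and 37.4 and 29.8% in ITGA3-216. Summed over coding transcripts alone, ITGA3 went from a mean of 0.0711 CPM at 0 h to 69.6 CPM at 72 h. TIE1-201 went from 3.58 and 2.32% at 0 h to 93.6 and 93.3% at 72 h, while the shorter non-coding TIE1-204 held 95.6 and 97.7% at 0 h. CHI3L1 (a chitinase-like secreted protein) was read wholly from the retained-intron transcript CHI3L1-204 at 0 h (100% in both libraries), and CHI3L1-201 held 87.8 and 81.3% at 72 h.

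In MYLK and ARNT2 the early reads lay in part or nearly all in non-coding transcripts, and the leading coding transcript has another start site. MYLK-202, which starts at position 123876618 of chromosome 3, held 0% in every library up to 6 h, 58.6 and 60.4% at 24 h, then 73.5 and 65.4% at 72 h. At 0 h the coding MYLK-205 held 49.1 and 42.1% and the retained-intron MYLK-217 27.9 and 43.6%. ARNT2-207 held 0% at 0 h, 50.9 and 44.6% at 6 h, then 76.7 and 80.7% at 72 h, where the retained-intron transcript ARNT2-205, from the upstream start site, held 98.4 and 100% at 0 h. The start sites of both lie on chromosome 15, at positions 80441231 and 80404350. NTRK3, a neurotrophin receptor, moved between coding transcripts: NTRK3-201 went from 4.0 and 0% at 0 h to 58.0 and 61.4% at 72 h, and NTRK3-212 from 58.9 and 84.0% to 13.6 and 12.8%. SCG5 went the other way, since the retained-intron SCG5-205 held 0% up to 6 h and 94.2 and 93.4% at 72 h, and the coding transcripts averaged only 3.13 CPM at 72 h. SCG5 was under the floor of 3 reads in 0 h replicate 1 (0.0452 CPM) and 6 h replicate 2 (0.0505 CPM). Its shares in those libraries rest on very few reads. STOM-201 (86.6 and 72.5% at 0 h, 87.5 and 81.7% at 72 h) and CCND1-201 (96.5 and 94.9%, 98.9 and 97.5%) showed no such change.

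**Figure D4:**
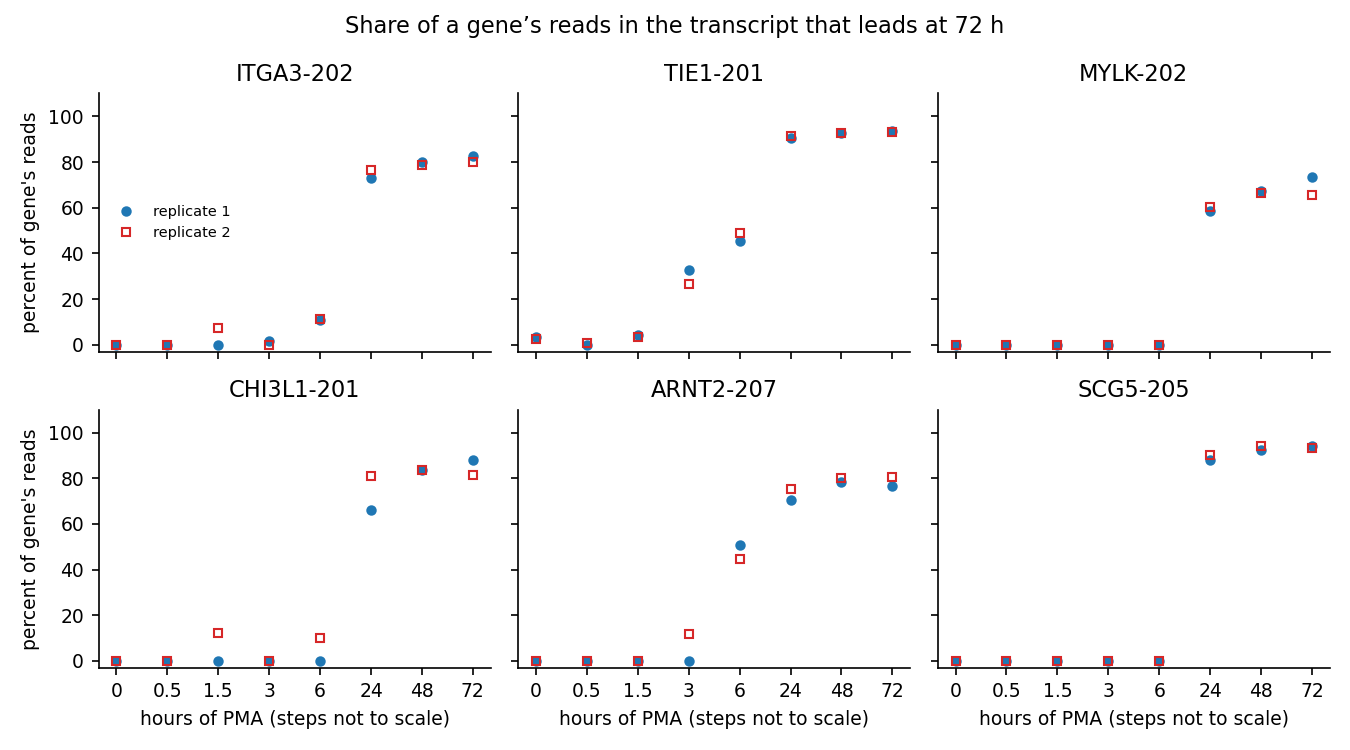
Percent of a gene's reads assigned to the transcript that leads at 72 h, for 6 members, by hours of PMA in even steps; points are libraries. The share is 0 to 3.58% at 0 h and at least 65.4% at 72 h in all 6. SCG5 was under the floor of 3 reads in 0 h replicate 1 and 6 h replicate 2.

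Of the 87 members with at least 100 reads both in the early libraries together and at 72 h, 11 (12.6%) had a leading transcript with at least 40% of the reads at 72 h and under 10% in the early libraries, beside 0.687% of 12656 protein-coding genes with such reads. The share of reads in coding transcripts rose by at least 20 percentage points in 17 of the 87 (19.5%), beside 2.11% of those genes. It fell by as much in 2, SCG5 and BACE2, beside 0.474% of those genes. The members were chosen for low early levels and the other genes were not, and no test was made. These shares are salmon estimates, and unspliced RNA in a total RNA library can be assigned to retained-intron transcripts. With the rule applied to coding transcripts only, 105 genes met it, of which 100 are members. The 11 members that did not meet it included SCG5, COL22A1, LIMS4 and NT5DC4, whose leading 72 h transcript is not annotated as coding. WWC1, with 93.3% of its 72 h reads in coding transcripts, was also among them.

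Some members lay near each other in the genome. A member start site lay within 1 Mb of another member's in 29 of 111 (26.1%), and within 1 Mb of 823 (10.8%) of the other 7607 protein-coding genes with at least 20 CPM at 72 h. IL1A and IL1B start 52 kb apart on chromosome 2, with NT5DC4 63 kb beyond IL1A. ARNT2, CEMIP and CFAP161 lie within 603 kb on chromosome 15, which held 10 members (9.01%, beside 3.45% of those genes). ITGA3 and COL1A1 start 146 kb apart on chromosome 17, and CTSE on chromosome 1 starts 519 kb from CDK18 and 874 kb from IL24. PCDHGC3 and PCDHGC5, 13 kb apart, share their last exons, and 46.3% of the PCDHGC3 transcript is found in other listed genes, so their reads cannot be told apart with certainty. Shared sequence also touched ITGB3 (56.7% of its transcript, with a readthrough gene), ACE (35.7%), SLAMF8 (69.1%), ULBP2 (98.9%, with RAET1L) and LIMS4 (100%, with LIMS1), whose values are uncertain to that extent.

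RefSeq promoter windows (GRCh38.p14, 250 bases before to 50 after the start) were found for 78 of the 111 members. The AP-1 letters TGANTCA, searched on both strands, were in 12 of them (15.4%). They were in 4.09% of 6335 other genes with at least 20 CPM at 72 h, and in 7.76% of all 27305 windows. Their middle letter can be any base, so they are wider than TGA(C/G)TCA, the usual site for FOS and JUN factors. ETS letters CCGGAA were in 6.41% of the members, 34.5% of the other genes and 17.6% of all windows. TATA letters TATAAA were in 15.4%, 5.51% and 12%, and GATA letters AGATAA in 10.3%, 4.47% and 10.5%. Sp1 letters GGGCGG were in 52.6%, 72.6% and 44.6%, and NF-kB letters GGGNNTTCC in 12.8%, 8.08% and 6.60%. RUNX letters TGTGGTT were in 3.85%, 2.75% and 4.28%, E-box letters CAGCTG in 21.8%, 16% and 17.7%, STAT letters TTCNNNGAA in 7.69%, 6.17% and 7.88%, and CRE letters TGACGTCA in 2.56%, 3.85% and 1.98%. SMAD letters GTCTAGAC and MEF2 letters TATTTATA were in none of the 78 windows, and in 0.201% and 1.49% of all windows. The median GC content was 59.8% in the members' windows and 65.7% in those of the other genes, and its part in these shares was not tested. In 35 of the 78 the leading 72 h transcript starts within 50 bases of the RefSeq start, and 5 of these hold the AP-1 letters.

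In those 5 the leading 72 h transcript is annotated to start within 50 bases of the RefSeq start, and no start site was measured. The 250 bases before the RefSeq start are shown for 3 of them, since they let the position of the AP-1 letters (in capitals) be read against that start. SLC6A17 (an amino acid transporter of synaptic vesicles, chr1:110150244-110150493, plus strand) has them 41 bases before the start, PRSS2 (chr7:142770720-142770969, plus strand) 166 bases before it, and SYTL5 (a Rab27 effector, chrX:38006303-38006552, plus strand) 236 bases before it. The letters read TGAGTCA in SLC6A17 and TGAATCA in PRSS2 and SYTL5, so only the first has C or G in the middle. None of the 3 overlaps another motif searched.
SLC6A17: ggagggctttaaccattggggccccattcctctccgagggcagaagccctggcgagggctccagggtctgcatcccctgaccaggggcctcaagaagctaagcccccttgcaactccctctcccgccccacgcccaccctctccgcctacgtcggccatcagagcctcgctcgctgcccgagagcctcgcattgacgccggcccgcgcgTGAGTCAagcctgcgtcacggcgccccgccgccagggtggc
PRSS2: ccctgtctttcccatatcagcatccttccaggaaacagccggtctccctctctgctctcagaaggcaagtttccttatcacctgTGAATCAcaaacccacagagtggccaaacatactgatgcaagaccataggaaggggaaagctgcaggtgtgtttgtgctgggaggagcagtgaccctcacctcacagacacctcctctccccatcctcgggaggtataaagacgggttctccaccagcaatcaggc
SYTL5: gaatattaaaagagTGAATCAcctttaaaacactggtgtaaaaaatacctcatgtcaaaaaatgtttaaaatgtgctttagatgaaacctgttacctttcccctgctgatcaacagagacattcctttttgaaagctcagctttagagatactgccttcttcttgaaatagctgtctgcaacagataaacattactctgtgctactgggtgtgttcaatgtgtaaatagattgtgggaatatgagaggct
SLC6A17 stood at 5.50 and 5.16 CPM at 24 h and 13.6 and 13.5 at 48 h, and SYTL5 at 6.81 and 6.45 CPM and 25.9 and 27.0 CPM. Both were called higher, with log2 fold changes of 1.27 (standard error 0.13, edgeR adjusted p 4.88e-05) and 1.92 (standard error 0.19, edgeR adjusted p 2.36e-05). A match of letters is a description and not evidence of binding.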

How the data were processed

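RNA of K562 cells was sequenced at 8 time points of 25 nM PMA, 2 libraries each, from ribosomal RNA-depleted total RNA, per the labels' protocols. The deposited tables hold, per Ensembl transcript, an estimated count of reads, which need not be whole, and TPM, per the file headers. The submitters' processing notes name Trim Galore 0.4.3, Salmon, and the builds hg19 and hg38. The salmon version and transcript annotation are not given in the sources used here.

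Estimated counts were summed per gene with GENCODE release 29 (GRCh38), matching 94.1% of 177456 transcripts, in 35052 genes. Unmatched transcripts carried 3.01 to 3.75% of the reads per library and were not used. CPM divides by the reads in matched genes. Members, lists and roles were chosen with earlier results of these data known, and roles after the members were known. The genes named are the 10 members with the highest 72 h CPM, the 5 largest called rises from 24 to 48 h (no fall was called), the 3 highest and 3 lowest ratios of 24 to 72 h, up to 2 members of each list, and the 3 genes on each side of each threshold. IL1A, IL24, ACE, CTSE, BACE2, KIT, DCSTAMP, LYVE1, NOS1, NT5E, PRKCE, WWC1, SYTL5, SLC6A17 and the other genes named outside this rule, members or not, were chosen after their values were seen.

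Only 48 h against 24 h was tested: rounded counts, edgeR 4.0.16 (R 4.3.3), TMM, filterByExpr, all 16 libraries with the time point as the only term, quasi-likelihood test, Benjamini-Hochberg adjusted p under 0.05. On simulated counts for this comparison (17559 genes) it recovered 55.0% of 2-fold and 80.0% of 4-fold changes, with 4 of 139 calls false. The changed genes were drawn at random from all genes run, at any level, so these are not recovery rates for the members. DESeq2 1.42.0 was an alternative. Shared sequence was searched with BLAST+ 2.17.0, at 95% identity over at least 100 bases. Floors of 3 reads cover counting error only, since PCR copies are not independent molecules. Some items that the lists or rules would give are not reported here.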

Additional observations from a re-analysis of the deposited data

How the results depend on the processing

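The count of members called lower at 48 h than at 24 h was 0 under every alternative run. Members called higher were 83 to 90 without any 1 of the 24 or 48 h libraries and 87 to 105 under the other fits at the same threshold, 90 at an adjusted p under 0.01, and 43 when tested against a 2-fold change. Their median log2 fold change, 1.28, was 1.30 with DESeq2's size factors, with DESeq2 and in a fit of only the 24 and 48 h libraries, 1.36 with library totals, 1.31 with at least 10 counts in every 24 and 48 h library, 1.26 with counts from length-scaled TPM, and 1.25 to 1.37 without 1 library. Over all genes, 1559 higher and 1074 lower became 837 to 942 and 229 to 529 without 1 library, 904 and 417 at an adjusted p under 0.01, and 195 and 29 against a 2-fold change. Genes called lower were 2129 in the fit of only the 24 and 48 h libraries and 568 with length-scaled TPM. The replicate numbers did not establish a pairing (r = 0.16 between the 24 and 48 h replicate differences), and a fit with the replicate block called 99 members higher, 0 lower, and 1688 and 1320 of all genes.

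The number of members was 186 with a fold threshold of 5, with a median 24 h level of 35% of the 72 h level, and 65 with a minimum of 50 CPM, of which 33 were past 10-fold at 24 h. The median was 21.5% with a fold threshold of 20 and 25.3% with a minimum of 10 CPM. Either replicate set alone gave 103 and 119 members, and TPM gave 100, of which 78 are members here. Signs turned in 3 members that were not called: IGF1R to 0.01 and ANGPTL4 to 0.03 with library totals, ANGPTL4 to 0.10 without 24 h replicate 2 (-0.16 to 0.10 without 1 library), and KCNK3 to -0.01 without 24 h replicate 1 (-0.01 to 0.14). The causes were not tested. Alternatives chosen after seeing the data were all reads as the denominator (109 members), leaving out the 7 members that share sequence (104 members, of which 93 were called higher), and coding transcripts only (105). With 2 libraries a group, small changes such as that of TFPI2 are at the limit of what the depth and number of libraries can show.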

Other observations

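A pair of non-coding genes met the same rule. RPLP0P2, a transcribed pseudogene of a ribosomal protein gene, stood at 4.34 and 4.65 CPM at 0 h, 19.7 and 20.3 at 24 h, 55.7 and 55.9 at 48 h, then 122 and 126 at 72 h. C12orf71BP, which overlaps the member PPFIBP1 on chromosome 12, stood at 1.91 and 1.47 CPM at 24 h, 8.20 and 8.72 at 48 h, then 28.1 and 29.5 at 72 h.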
